A study of Mus musculus with 32 samples.

Results

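Lungs of 6 adult mice that lack glutathione reductase were compared: 3 had breathed 100% oxygen as newborns and 3 had breathed room air throughout. These are the arrays labelled as Gsr knockout (Gsr-KO), postnatal day 56 (P56), hyperoxia or air, 6 of the 32 arrays of the series. The hyperoxia mice were kept in 100% oxygen with their dams from P0 to P5 and then recovered in room air up to P56. The air mice stayed in room air. All mice of the series were of strain C3H/HeN, and the Gsr-KO mice of both groups carried the same loss of Gsr; the labels used here do not name the allele. The other 26 arrays are Gsr-WT adults treated in the same 2 ways (3 each), Gsr-KO and Gsr-WT pups at the end of hyperoxia or air at P5 (3 each), and E19 lungs of both genotypes, from before birth (4 each). Each array is described as RNA from a portion of 1 mouse's lung, so the 3 arrays of a group are taken as 3 animals. In such bulk RNA, fewer cells of a type and less RNA per cell cannot be told apart. Every gene measured enters the comparison, with 1 probe set per gene, 13345 genes in all.

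Glutathione reductase, the product of Gsr, uses NADPH to return oxidised glutathione to its reduced form, which glutathione peroxidases and transferases consume. In mice, the alveoli form mostly after birth, and breathing high oxygen during that time is a widely used model of bronchopulmonary dysplasia, the chronic lung disease of preterm infants, with fewer and larger alveoli that can persist into adulthood. The comparison asks what remained in the adult transcriptome of mice exposed as newborns without this enzyme.

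Signals are the deposited array intensities in arbitrary units, and differences are given as log2 of hyperoxia over air after an offset of 26.3 units, with their standard error (SE) from limma. Gsr itself, the enzyme that the knockout removes, read 188, 234 and 257 units in Gsr-KO hyperoxia lungs, against 1137, 1541 and 1188 units in Gsr-WT hyperoxia lungs. In air it read 193, 182 and 182 units in Gsr-KO lungs, against 1124, 926 and 1124 units in Gsr-WT lungs. The KO-minus-WT difference was -2.38 ± 0.18 after hyperoxia and -2.35 ± 0.18 after air (limma adjusted p = 7.26e-09 and 9.56e-09), so every adult array matched its genotype label. The alveolar markers of the label lung were present at high level: Sftpc, the surfactant protein of alveolar type 2 cells, read 19120, 22810 and 28640 units on the hyperoxia arrays and 20950, 24790 and 21780 units on the air arrays. The 6 Gsr-KO adult arrays correlated with each other at 0.969 to 0.989 (Pearson, log2 values over genes). A sign of RNA quality, the ratio of 3′ to 5′ probes for beta-actin and Gapdh on the log2 scale, was 0.54 to 1.55 on the hyperoxia arrays and 0.68 to 1.05 on the air arrays. Sex is not among the labels. The signals of the Y-linked genes measured, among them Eif2s3y, Kdm5d and Uty, were summed. The sum was 23 to 46 units on the 3 hyperoxia arrays, and 2413, 133 and 141 units on air replicates 1, 2 and 3. On air replicate 1, Xist, the RNA of the inactive X chromosome, read 5598 units. That array carried both signals, and whether it holds RNA of only 1 mouse is not settled. In the Gsr-WT adults the Y-linked sum was 38, 104 and 32 units on the hyperoxia arrays, and 2959, 3600 and 226 units on the air arrays, so values shared by both genotypes also share an air group of higher Y-linked signal. With the Y-linked signal as a covariate the Gsr-KO difference was -1.22 for Sstr4, 1.70 for Slc26a4, 1.93 for Retnla and 0.90 for Rgs5, against -1.27, 1.51, 1.98 and 1.08 without it. The part that a mixed sample had in the results was not tested. Where leaving out 1 of the 6 arrays moved a list median printed below by over 1.5 times, such a value is given for most lists. Medians under 0.1 in size moved by at most 0.19. Gsr-WT hyperoxia replicate 2 stood apart from the other adult arrays, with a 3′-to-5′ ratio of 2.84, a median signal of 76.2 units against 95.1 to 109.4 on the others, and correlations of 0.923 to 0.943 with them. It enters every Gsr-WT difference below unless its absence is stated.

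In the adult lungs without glutathione reductase, earlier hyperoxia went with lower signals of heart muscle genes, led by Myl3 and Mb, and of the somatostatin receptor Sstr4. Signals were higher for some genes of mucus-producing airway cells and the type 2 immune response (Clca1, Slc26a4, Retnla). They were also higher for the lymphocyte-homing ligand Glycam1 and for the pericyte gene Rgs5. In Gsr-WT adults Clca1, Slc26a4, Retnla, Rgs5 and Sstr4 differed in the same direction (2.87, 1.78, 2.09, 0.67 and -1.08 in that order). The surfactant, alveolar and vessel markers were close to their air level. No gene passed an adjusted p of 0.05 in the limma fit of all 32 arrays, in either direction (0% of 13345 genes). An unadjusted p under 0.05 was reached by 360 genes, 2.7% of those tested. In 1272 genes (9.53%) all 3 hyperoxia arrays lay above all 3 air arrays, and in 821 genes (6.15%) all lay below. The median difference over all genes was 0.03. Gsr-WT adults, tested in the same fit, also had 0 genes past the threshold, with 681 (5.1%) under an unadjusted p of 0.05. The genotype-by-oxygen term, which tests whether the adult difference in Gsr-KO differs from that in Gsr-WT, was passed by 0 genes, with 328 (2.46%) under an unadjusted p of 0.05. The spread shared by the fit comes from 10 groups, and the median SD of a gene within a group was 0.17 in the Gsr-KO hyperoxia adults and 0.16 in the Gsr-KO air adults, against 0.43 in Gsr-KO embryos. When the 6 Gsr-KO adult arrays were fitted alone, with 4 residual degrees of freedom, 12 genes rose (0.0899%) and 32 genes fell (0.24%), and 13 of the 32 are on the heart or skeletal muscle lists, which hold 29 of the genes tested. Ttn, Casq2, Myoz2, Smpx and Hrc, genes of the sarcomere and its calcium store named here after their values were seen, were also among the 32. A fit of the 12 adult arrays called 4 genes: Rgs5 rose (0.00749% of the genes tested), and Sstr4, Cstdc2 and Acta1 fell (0.0225%). No gene passed when any 1 of the 6 arrays was left out of the fit of all arrays, and with array weights, which down-weight noisy arrays, 463 genes passed (267 higher, 2%, and 196 lower, 1.47%). In what follows, higher, lower, above and below describe values and not calls, unless a fit is named; above and below mean that the 3 arrays of one group all lay on one side of the other 3.

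Glycam1 encodes a mucin-type glycoprotein that carries the ligand of L-selectin on high endothelial venules, the vessels through which lymphocytes enter lymph nodes. Its signal was 336, 459 and 207 units on the hyperoxia arrays, against 6.39, 36.1 and 2.93 units on the air arrays, a difference of 3.14 ± 0.65 (adjusted p = 0.22 in the fit of all arrays and 0.00492 in the Gsr-KO adult arrays alone, both limma). All 3 air arrays lay under 100.4 units, the middle of all signals deposited, where the size of the difference depends on the offset. With each of them set to 100.4 units the difference was at least 1.44. In Gsr-WT lungs it read 2.65, 512 and 36.2 units after hyperoxia and 6.46, 4.02 and 133 units after air, so the groups of that genotype overlapped. Without hyperoxia replicate 2 the Gsr-WT difference was -0.35 ± 0.51.

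Lrg1, a secreted leucine-rich glycoprotein induced in inflammation and active in vessel growth, read 2950, 2174 and 2294 units after hyperoxia and 659, 784 and 1231 units after air (1.48 ± 0.33, limma adjusted p = 0.389, and 0.0178 in the Gsr-KO adult arrays alone). It was also higher in Gsr-WT, with 1998, 2086 and 2943 units after hyperoxia and 1557, 1116 and 1310 units after air. Rgs5, a regulator of G-protein signalling that marks pericytes, the contractile cells wrapped around capillaries, had 1965, 1899 and 1798 units on the hyperoxia arrays and 977, 720.4 and 963 units on the air arrays (1.08 ± 0.31). The 3 hyperoxia arrays lay close together, and Gsr-WT showed the same separation, 1501, 1086 and 1291 units after hyperoxia and 806, 782 and 805 units after air (0.67 ± 0.31). Of the other 3 Rgs5 probe sets, 1 ran the opposite way, with means of 97.5 units after hyperoxia and 122.6 units after air. The other two were higher after hyperoxia, with means of 428 and 117 units after hyperoxia, against 319.6 and 62.6 units after air.

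Trib1, a pseudokinase that steers transcription factors of myeloid cells to degradation, read 109.7, 140 and 132 units on the hyperoxia arrays and 17.4, 22.2 and 17 units on the air arrays (1.76 ± 0.48, at least 0.27 with the air arrays set to 100.4 units). The Gsr-WT groups overlapped, with 140, 7.82 and 111 units after hyperoxia and 126, 166 and 29.6 units after air (-0.36 ± 0.48, and 0.36 ± 0.45 without hyperoxia replicate 2). The others of the 10 higher genes named by the rule were Slc26a4 and Clca1, described with the secretory genes below, and Zkscan16, Mlph, Ighg3 and Sh3gl3. Mlph, a linker of Rab27 vesicles to myosin motors, read 314, 259.7 and 294 units after hyperoxia and 162, 169.9 and 178 units after air (0.68 ± 0.19), and its Gsr-WT groups were separate too (0.46 ± 0.19). Zkscan16, a zinc finger gene, and Sh3gl3, an endophilin of membrane curvature, differed by 0.88 ± 0.22 (at least 0.21 with the air arrays set to 100.4 units) and 0.70 ± 0.20. Over these 10 genes the limma adjusted p ran from 0.22 to 1 after rounding.

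Sstr4 had the lowest p of the named genes; 1 gene without a described name, 1700128F08Rik, also lower, had a lower one, and neither passed. Sstr4 encodes a somatostatin receptor, a G-protein-coupled receptor that lowers cyclic AMP. It read 132, 145 and 201 units on the hyperoxia arrays and 445, 455 and 355 units on the air arrays, a difference of -1.27 ± 0.24 with a 95% interval of -1.77 to -0.77 (limma adjusted p = 0.115, and 0.0152 in the Gsr-KO adult arrays alone). Gsr-WT gave 222, 234 and 195 units after hyperoxia and 434, 479 and 549.7 units after air (-1.08 ± 0.24), again with no overlap between the groups. Cstdc2, a gene of the cystatin family of protease inhibitors, followed the same pattern, with 239.5, 233 and 239.9 units after hyperoxia and 638, 587 and 487 units after air in Gsr-KO (-1.17 ± 0.27). In Gsr-WT it had 198, 257 and 174 units after hyperoxia and 416, 499 and 488 units after air (-1.08 ± 0.27). Wfdc6a, of the whey acidic protein family, was lower in both genotypes as well (-0.73 ± 0.18 in Gsr-KO and -0.65 ± 0.18 in Gsr-WT). Its hyperoxia arrays of both genotypes were under 100.4 units, and the Gsr-KO difference was -0.04 with them set to 100.4 units. For these 3 genes the hyperoxia and air groups were separate in both genotypes, and without Gsr-WT hyperoxia replicate 2 the Gsr-WT differences were -1.13, -1.22 and -0.62.

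Of the other 7 lower genes, Cnga2 and Sp6 were also separate in Gsr-WT and the rest were not. Cnga2, the olfactory cyclic-nucleotide-gated channel, and Sp6, a transcription factor of developing teeth and skin appendages, had all Gsr-KO hyperoxia arrays under 100.4 units. On the Gsr-KO air arrays Cnga2 read 122, 118 and 126 units, and Sp6 111, 149.6 and 93.1 units. Maz, a zinc finger transcription factor, read 162, 69.1 and 160.2 units after hyperoxia and 312, 237 and 281 units after air in Gsr-KO (-1.01 ± 0.23). In Gsr-WT it read 285, 192 and 331 units after hyperoxia and 209, 195 and 205 units after air. Rpl27a, a ribosomal protein whose probe set may read processed copies of the gene, had 936, 820.4 and 886 units against 1426, 1091 and 1551 units (-0.59 ± 0.16). Lsm7, a subunit of the ring that binds U6 RNA and decaying mRNA, had 903, 813 and 715 units against 1188, 1425 and 1379 units (-0.70 ± 0.22). Tpm3, a tropomyosin, differed by -0.51 ± 0.15, although 1 of its 4 other probe sets ran the opposite way (means of 4535 units after hyperoxia and 3801 units after air). Klrc1 is described with the natural killer genes. The limma adjusted p of the 10 lower genes ran from 0.115 to 1 after rounding. None of the 20 named genes changed sign under any alternative tried with 1 probe set per gene. This was largely set by the naming rule, which asked for separate groups. With separate groups, leaving out an array or changing the offset cannot turn the sign.

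**Figure D1:**
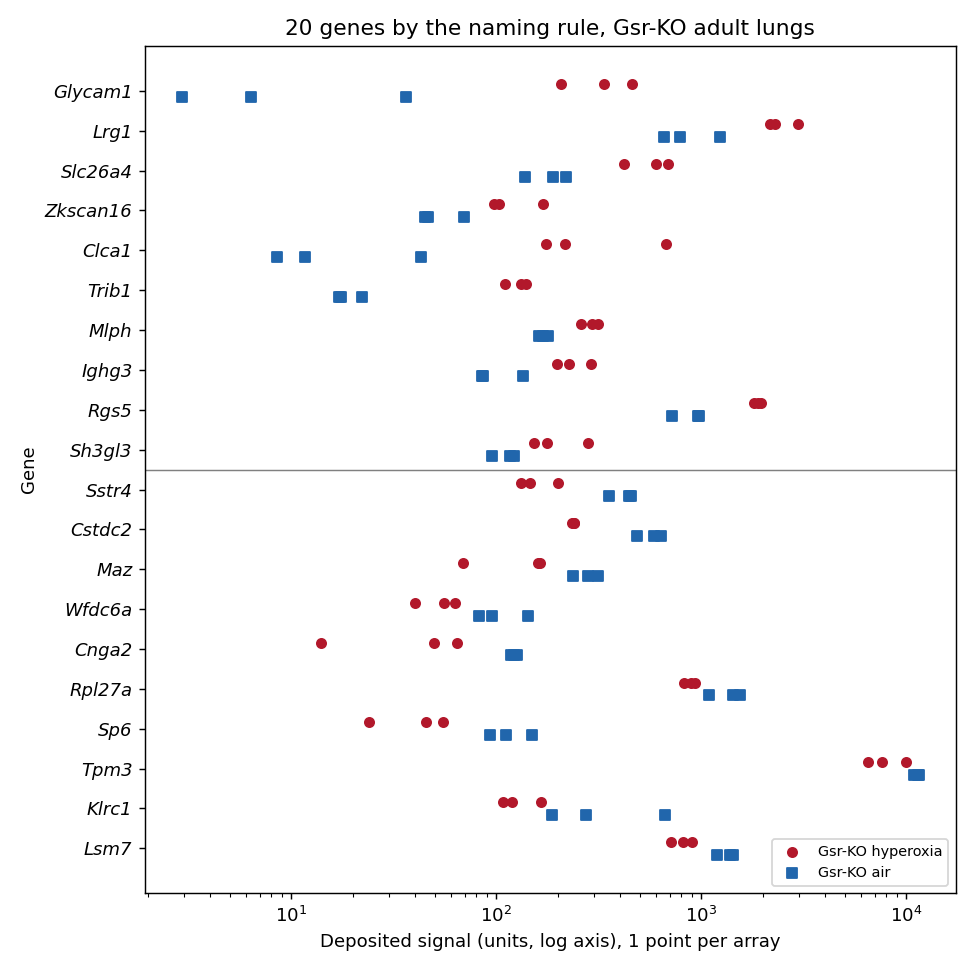
Signal of the 20 named genes on each of the 6 Gsr-KO adult arrays (log axis, arbitrary units; circles are the 3 hyperoxia arrays, squares the 3 air arrays), the 10 higher genes above the line and the 10 lower genes below it, each ordered by p. In every row the circles and the squares are separate, which the naming rule asked for; Rgs5, Sstr4 and Cstdc2 show narrow groups, while Glycam1 and Clca1 rest on air arrays under 100.4 units.

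Heart muscle genes were lower after hyperoxia in the Gsr-KO adults, and skeletal muscle genes partly so. In the mouse, heart muscle cells sheathe the pulmonary veins and reach into the lung, so lung RNA carries transcripts of the cardiac sarcomere, its calcium handling and its myoglobin. Of the 15 heart muscle genes measured, 14 had all hyperoxia arrays below all air arrays (against 6.15% of all genes) and none had the reverse. Their median difference was -0.89. In the fit of all arrays 0 of the 15 passed, and in the Gsr-KO adult arrays alone 11 of the 15 fell (against 0.24% of all genes). With array weights 2 of the 15 fell (against 1.47% of all genes). The fit of the adult arrays of both genotypes called none of the list, so the calls depended on the fit. The mean of the list's log2 levels, each taken relative to the gene's average of the 32 arrays, ranged from -0.83 to -0.51 on the Gsr-KO hyperoxia arrays and from 0.34 to 0.45 on the Gsr-KO air arrays. It ranged from -1.01 to -0.30 on the Gsr-WT hyperoxia arrays and from -1.44 to 0.46 on the Gsr-WT air arrays. The Gsr-KO groups were each narrow, and the Gsr-WT air lungs alone spanned more than both. With the Y-linked signal as a covariate the median of the list was -1.66, the lowest of any alternative, and without air replicate 1 -0.93.

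Myl3, the ventricular and slow-muscle essential light chain of myosin, had the largest negative difference of the 15 genes. Its signal was 269.7, 245 and 137 units on the hyperoxia arrays and 1599, 1209 and 1390 units on the air arrays, a difference of -2.59 ± 1.08 with a 95% interval of -4.80 to -0.38 (limma adjusted p = 1 after rounding, and 0.00171 in the Gsr-KO adult arrays alone). In Gsr-WT it was 327, 449 and 318 units after hyperoxia and 834, 265 and 1514 units after air, so those groups overlapped. The atrial light chains showed the same order: Myl4 read 3649, 2844 and 2512 units after hyperoxia and 6807, 8098 and 8026 units after air (-1.35 ± 0.66). Myl7 read 5111, 4991 and 4613 units against 9533, 8354 and 8340 units (-0.83 ± 0.57). Both were abundant on all 6 arrays.

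Of the thin filament and the motor, Tnni3, cardiac troponin I, had 1276, 925 and 781 units after hyperoxia and 2253, 2455 and 2618 units after air (-1.30 ± 0.80). Tnnt2, cardiac troponin T, had 2582, 2214 and 1865 units against 4553, 4959 and 5419 units (-1.16 ± 0.71). Myh6, the alpha myosin heavy chain, had 3015, 2784 and 2594 units against 4886, 4599 and 5377 units (-0.82 ± 0.72). In all 3 genes the hyperoxia arrays lay well below the narrow range of the air arrays. Actc1, cardiac alpha actin, had a smaller difference, -0.47 ± 0.45, and its groups were barely separate, 6631, 4968 and 4866 units against 6672, 7504 and 8503 units.

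Of calcium handling, Sln, sarcolipin, the small inhibitor of the sarcoplasmic calcium pump in atria, read 1092, 1044 and 849 units after hyperoxia and 3372, 2738 and 2975 units after air (-1.58 ± 0.96). Pln, phospholamban, its ventricular counterpart, read 266, 281 and 162 units against 682, 740.2 and 825 units (-1.59 ± 1.01). The natriuretic peptides, hormones made by heart muscle, were much dimmer. Nppa had 127, 129 and 111 units against 193, 346 and 153 units (-0.72 ± 1.67). Nppb, the 1 gene of the list without separation, had 103, 80.5 and 142 units against 86.6, 134 and 96.3 units (0.02 ± 1.13). Chosen after its values were seen, Mb, myoglobin, the oxygen store of red muscle, read 914, 1066 and 559 units after hyperoxia and 4123, 3805 and 3960 units after air (-2.24 ± 1.29). Ckmt2, mitochondrial creatine kinase of muscle, Csrp3, a Z-disc protein, and Tnnc1, cardiac troponin C, were chosen in the same way and differed by -1.80 ± 0.98, -1.38 ± 0.88 and -1.61 ± 0.77. The smallest limma adjusted p among all of these in the fit of the Gsr-KO adult arrays alone was 0.00171. In Gsr-WT the median difference of the heart list was -0.19. There 0 of its 15 genes separated the groups in either direction (against 7.73% of all genes above and 6.97% below). The genotype-by-oxygen term of Myl3 was -1.67 ± 1.52, that of Mb -2.01 ± 1.82, and neither passed.

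The promoters of Myl3 and Myl7 hold the CArG box, the motif read by serum response factor in muscle genes, and are shown for that reason (RefSeq, GRCm38.p6, 250 bases before to 50 after the start of transcription, 5′ to 3′; capitals mark the CArG box). The windows are chr9:110763428-110763727, plus strand, for Myl3 and chr11:5898733-5899032, minus strand, for Myl7.
Myl3: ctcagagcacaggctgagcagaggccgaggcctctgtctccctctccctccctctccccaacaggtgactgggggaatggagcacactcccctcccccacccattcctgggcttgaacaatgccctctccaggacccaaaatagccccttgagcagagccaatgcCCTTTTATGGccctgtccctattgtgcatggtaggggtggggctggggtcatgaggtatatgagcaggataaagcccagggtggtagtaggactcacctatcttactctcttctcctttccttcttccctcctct
Myl7: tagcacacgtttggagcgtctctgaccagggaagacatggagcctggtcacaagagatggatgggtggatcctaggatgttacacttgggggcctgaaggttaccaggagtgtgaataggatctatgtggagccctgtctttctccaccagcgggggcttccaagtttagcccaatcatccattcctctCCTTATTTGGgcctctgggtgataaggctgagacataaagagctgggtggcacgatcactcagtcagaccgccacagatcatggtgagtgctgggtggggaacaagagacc
The box starts 85 bases before the start site in Myl3 and 61 bases before it in Myl7. Of the 15 heart genes 14 were found in the promoter table, and 3 of the 14 (Actc1, Myl7 and Myl3) hold a CArG box, against 1.63% of all 32841 promoters of the same length, read on both strands. A match describes the letters in the window and no binding.

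Of the 14 skeletal muscle genes measured, 7 had all hyperoxia arrays below all air arrays (against 6.15% of all genes) and 0 above. Their median was -0.56 in Gsr-KO (-0.36 without air replicate 1) and -0.62 in Gsr-WT, where 4 of the 14 lay below (6.97% of all genes). Of the 5 genes measured of the thyroid and oesophagus, tissues near the lung, the thyroid iodotyrosine deiodinase Iyd and the squamous keratins Krt4 and Krt13 lay below and the cornified envelope gene Sprr3 above (median -0.55 in Gsr-KO and 0.22 in Gsr-WT). The part of heart or other tissue attached to the lung in these muscle values was not tested. Acta1, skeletal alpha actin, read 133, 84.8 and 89.4 units after hyperoxia and 587, 417 and 463 units after air (-2.01 ± 0.89; limma adjusted p = 1 after rounding in the fit of all arrays and 0.00202 in the Gsr-KO adult arrays alone), and Ckm, muscle creatine kinase, 483, 309 and 352 units against 975, 981 and 1154 units (-1.40 ± 0.91). In Gsr-WT, Acta1 was 127, 234 and 172 units after hyperoxia and 606, 273 and 599.7 units after air (-1.30 ± 0.89). The fast-fibre genes were dim in adults. Tnnc2, fast troponin C, was at 7.25, 6.87 and 5.75 units after hyperoxia and 138, 32.8 and 19.2 units after air, and Tnnt3, fast troponin T, at 57, 39.7 and 57 units and 51.5, 36.9 and 41.5 units.

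**Figure D2:**
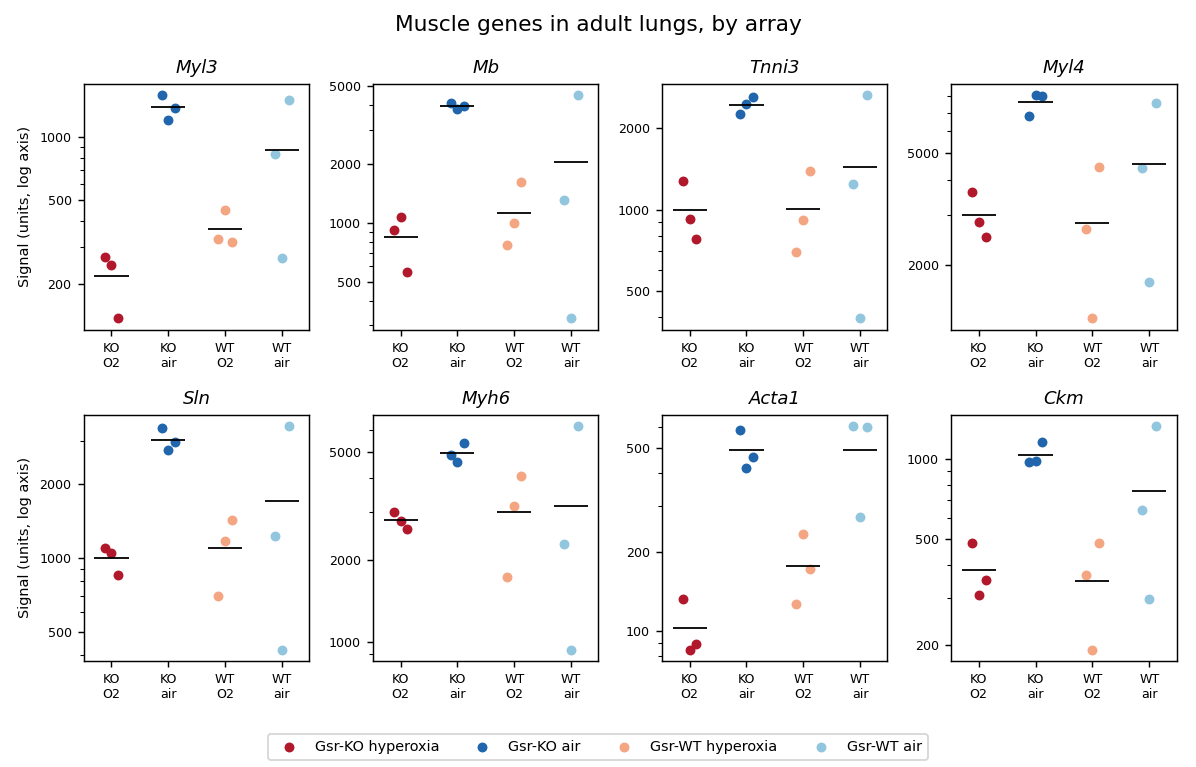
Signal of 6 heart muscle genes and 2 skeletal muscle genes on each adult array (log axis, arbitrary units; 1 point per array, the bar is the arithmetic mean of 3), for Gsr-KO hyperoxia, Gsr-KO air, Gsr-WT hyperoxia and Gsr-WT air from left to right. The Gsr-KO groups are separate in all 8 panels, whereas the Gsr-WT air arrays span a wide range, as with Myl3 at 834, 265 and 1514 units.

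In pups, most skeletal muscle genes and many genes of squamous epithelium were higher after hyperoxia. At P5, at the end of exposure, the fit called 46 genes in Gsr-KO hyperoxia against Gsr-KO air, 45 higher (0.337%) and 1 lower (0.00749%). Among the 45 were 9 of the 14 skeletal muscle genes. Also among them were 6 of the 11 basal and squamous epithelium genes measured (median 2.08 at P5). So were 3 of the 5 thyroid and oesophagus genes, a list that shares Krt4 and Krt13 with the squamous list. The part of attached tissue in the P5 values was not tested. The 46 fell to 23 without air replicate 2, to 25 without hyperoxia replicate 2 and to 25 without hyperoxia replicate 3 of the P5 groups, and were 74 without hyperoxia replicate 1. None of the 46 had separate groups in the same direction in the Gsr-KO adults. Acta1 was at 7884, 7299 and 6483 units in P5 hyperoxia and 658, 185 and 247 units in P5 air, a rise of 4.41 ± 0.89 (limma adjusted p = 0.0168), while the adult difference was -2.01. Tnnt3 rose by 4.73 ± 0.61 at P5 and was under 100.4 units on all 6 adult arrays. The heart muscle list had a median of -1.10 at P5, with 0 of 15 called, and -0.89 in adults.

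The test of the difference between the ages, the age-by-oxygen term in Gsr-KO, was passed by 11 genes (0.0824%), all with a lower effect in adults: Atp2a1, Tnnt3, Myh8, Tnnc2, Asb5, Atp1b4, Acta1, Fbp2, Myot, Krt4 and Actn3. Atp2a1, Tnnt3, Tnnc2 and Actn3 encode proteins of fast skeletal muscle fibres, and Krt4 is a keratin of squamous epithelium. For Acta1 the term was -6.42 ± 1.26 (limma adjusted p = 0.0403) and for Atp2a1, the fast-fibre calcium pump, -3.13 ± 0.59. The count was 8 without air replicate 1 of the P5 groups and 0 without any other 1 of the 12 arrays compared, and 0 with quantile normalization. Over all 13345 genes, as a description, the adult differences of Gsr-KO correlated with those at P5 at r = -0.04, and the 2 differences share no array.

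**Figure D3:**
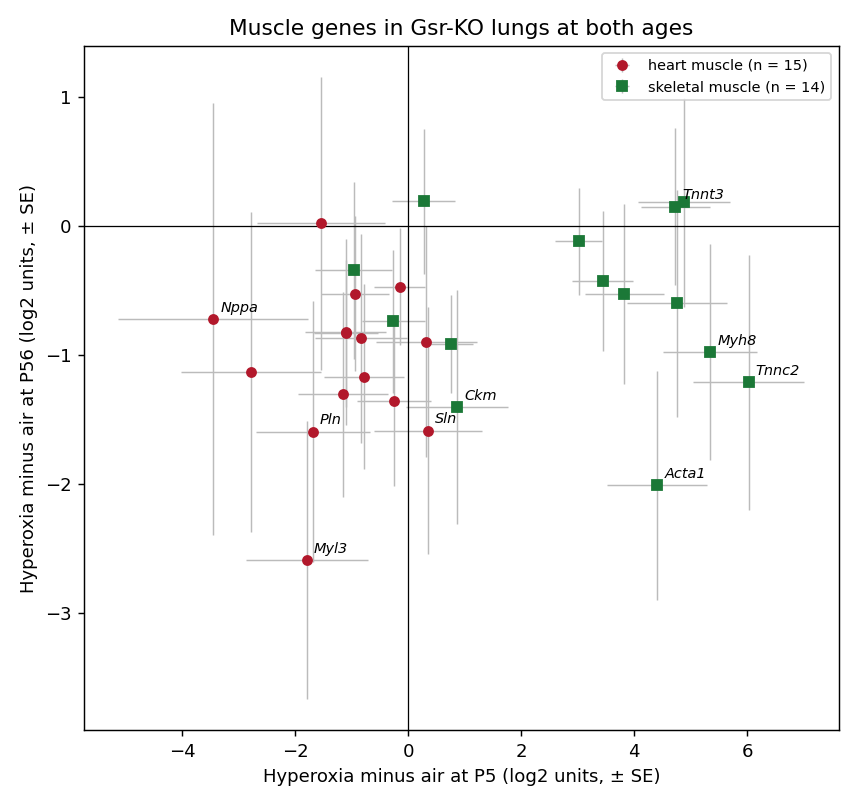
Hyperoxia minus air in Gsr-KO lungs at P5 (horizontal) and at P56 (vertical) for the 15 heart muscle genes (circles) and the 14 skeletal muscle genes (squares), in log2 units with bars of ± SE from the fit of all arrays. The skeletal muscle genes reach 6.03 at P5 (Tnnc2) and lie between -2.01 (Acta1) and 0.20 in adults, and 14 of the 15 heart muscle genes lie below 0 in adults.

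Genes of the type 2 immune response, and some of the secretory airway epithelium, were higher in the adults exposed as newborns. Type 2 cytokines such as interleukin 13 turn airway cells toward mucus production and induce a known set of genes in macrophages and epithelium. Of the 11 type 2 and allergic response genes measured, 5 had all hyperoxia arrays above all air arrays (against 9.53% of all genes), 0 had the reverse, and 0 passed in the fit of all arrays. Of the 11 differences 9 were positive and 2 negative. The median difference was 0.29 in Gsr-KO (0.47 without hyperoxia replicate 1) and 0.64 in Gsr-WT. In Gsr-WT 3 of the 11 lay above and 0 below (against 7.73% and 6.97% of all genes). Without Gsr-WT hyperoxia replicate 2 the Gsr-WT median was 0.33. The list's mean level ranged from 0.82 to 1.12 on the Gsr-KO hyperoxia arrays and from 0.09 to 0.34 on the Gsr-KO air arrays.

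Slc26a4, pendrin, an anion exchanger of the airway surface that interleukin 13 induces, read 421, 689 and 603 units after hyperoxia and 189, 139 and 218 units after air (1.51 ± 0.36, limma adjusted p = 0.512, and 0.0145 in the Gsr-KO adult arrays alone). In Gsr-WT it was 519, 782 and 336 units after hyperoxia and 155, 134 and 109 units after air (1.78 ± 0.36). The groups were separate in both genotypes. Clca1, a protein secreted by goblet cells, read 217, 671 and 174 units after hyperoxia and 11.6, 8.56 and 42.8 units after air (2.85 ± 0.76, at least 1.36 with the air arrays set to 100.4 units). The Gsr-WT arrays overlapped, at 68.2, 2179 and 620 units after hyperoxia and 17.6, 1.33 and 260.4 units after air, with a difference of 2.87 ± 0.76 (1.81 ± 0.73 without hyperoxia replicate 2).

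Retnla, a secreted resistin-like molecule of alternatively activated macrophages and airway epithelium, had 16380, 14100 and 10510 units on the hyperoxia arrays and 2744, 3889 and 3622 units on the air arrays (1.98 ± 0.63). In Gsr-WT it had 12360, 20830 and 13290 units after hyperoxia and 3005, 1823 and 7965 units after air (2.09 ± 0.63), and the groups were separate too. In the Gsr-KO adult arrays alone it rose (limma adjusted p = 0.00189). Chil4, a chitinase-like protein of the same response, read 75.2, 132 and 74.4 units after hyperoxia and 48.6, 34.5 and 36.8 units after air, too dim for a fold. Il33, the epithelial alarmin upstream of type 2 cytokines, read 3553, 4064 and 4757 units against 3244, 3028 and 3241 units (0.37 ± 0.29). Chia1, acidic chitinase, overlapped between the groups (0.29 ± 0.20).

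The promoters of Retnla and Slc26a4 are shown because the hyperoxia and air groups of these genes were separate in both genotypes (RefSeq, GRCm38.p6, 250 bases before to 50 after the start of transcription, 5′ to 3′; capitals mark TATAAA and, in Retnla, the palindrome of TTC and GAA with any 4 bases between, the half-sites and spacing read by STAT6, the factor activated by interleukin 4 and interleukin 13). The windows are chr16:48842359-48842658, plus strand, for Retnla and chr12:31559935-31560234, minus strand, for Slc26a4.
Retnla: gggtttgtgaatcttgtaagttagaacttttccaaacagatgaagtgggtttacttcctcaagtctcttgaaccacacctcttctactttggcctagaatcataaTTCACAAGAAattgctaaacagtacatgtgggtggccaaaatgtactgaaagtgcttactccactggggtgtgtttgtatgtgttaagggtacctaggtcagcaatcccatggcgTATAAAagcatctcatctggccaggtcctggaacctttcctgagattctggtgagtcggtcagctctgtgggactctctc
Slc26a4: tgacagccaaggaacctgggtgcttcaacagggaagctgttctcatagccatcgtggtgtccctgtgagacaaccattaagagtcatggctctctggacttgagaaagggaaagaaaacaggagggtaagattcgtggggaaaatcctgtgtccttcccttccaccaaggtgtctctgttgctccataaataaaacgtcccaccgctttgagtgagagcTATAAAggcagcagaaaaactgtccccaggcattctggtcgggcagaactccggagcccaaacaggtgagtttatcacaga
TATAAA starts 30 bases before the start site in Retnla and 31 bases before it in Slc26a4, and the palindrome 145 bases before it in Retnla. Of the 11 genes of the list 7 were found in the promoter table; 6 of the 7 hold TATAAA (13.6% of all 32841 promoters) and 2, Il33 and Retnla, hold the palindrome (6.95%), on either strand. The searched motifs do not overlap in these windows.

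Of 17 genes of club and secretory cells, 5 had all hyperoxia arrays above the air arrays and 1 all below (against 9.53% and 6.15% of all genes). Retnla is on this list and on the type 2 list, and is counted as above in both. The median of the 17 genes was 0.29 in Gsr-KO and 0.01 with array weights. It was 0.19 without hyperoxia replicate 3, 0.47 without hyperoxia replicate 2, 0.03 without air replicate 1 and 0.48 without air replicate 2. It was 1.11 in Gsr-WT (0.41 without hyperoxia replicate 2). The high-level club cell products showed no separation: Scgb1a1, secretoglobin 1A1, differed by -0.06 ± 0.15 and Scgb3a2 by -0.10 ± 0.13. Tff2, a trefoil peptide of mucous cells, read 355, 486 and 543 units after hyperoxia and 133, 237 and 134 units after air (1.35 ± 0.65; 2.14 ± 0.65 in Gsr-WT). Of mucous genes named after their values were seen, Muc5b, the gel-forming mucin of the airway, had 936, 548 and 625 units against 264, 494 and 405 units (0.82 ± 0.67). Reg3g, an antibacterial lectin, had 3142, 1830 and 2101 units against 737, 1327 and 931 units (1.22 ± 1.34); Agr2, a disulphide isomerase of mucin folding, differed by 0.87 ± 0.64. The same genes varied strongly between Gsr-WT arrays, as Reg3g did, with 604, 14920 and 6263 units after hyperoxia and 325, 31.9 and 2962 units after air.

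**Figure D4:**
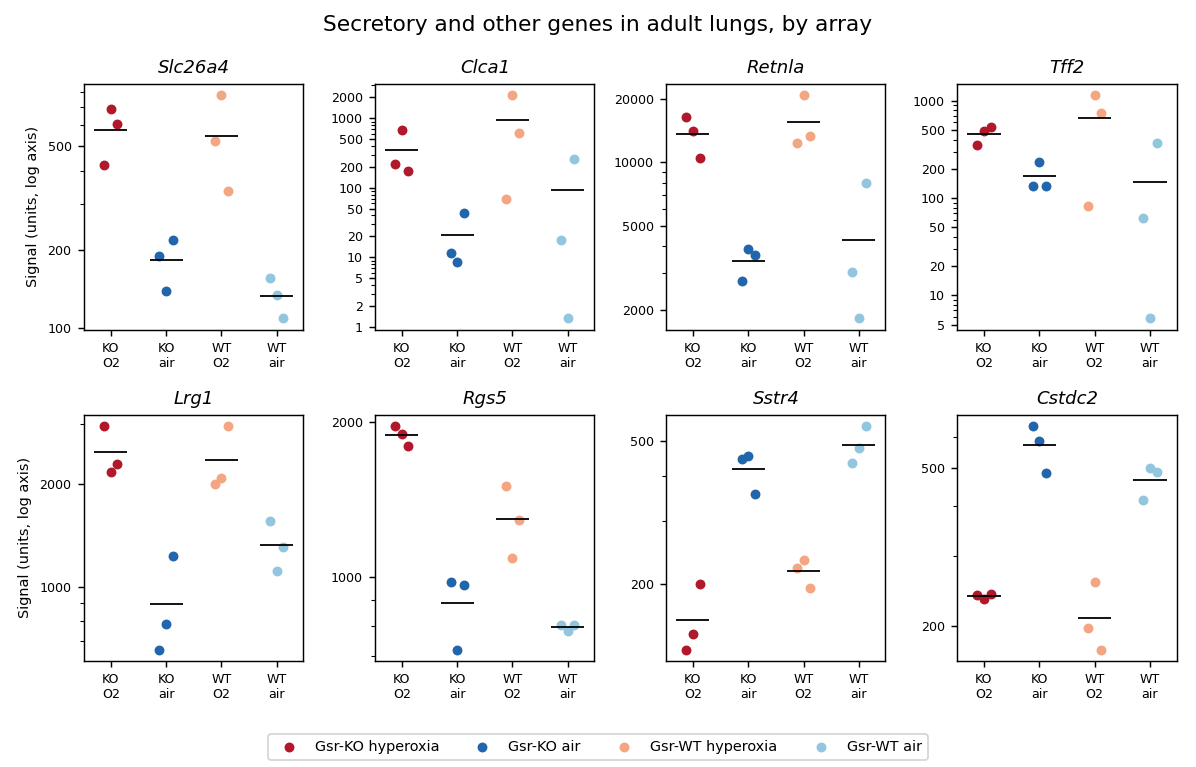
Signal of 8 genes on each adult array (log axis, arbitrary units; 1 point per array, the bar is the arithmetic mean of 3), for Gsr-KO hyperoxia, Gsr-KO air, Gsr-WT hyperoxia and Gsr-WT air from left to right. Slc26a4, Rgs5, Lrg1, Sstr4 and Cstdc2 separate hyperoxia from air in both genotypes, whereas the Gsr-WT arrays of Clca1 and Tff2 overlap.

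Natural killer cell genes were lower. Natural killer cells kill infected and transformed cells through granzymes and carry activating and inhibitory receptors of the Klr family. Of their 11 measured genes, 6 had all hyperoxia arrays below all air arrays (against 6.15% of all genes), 0 lay above and all 11 differences were negative. The median was -0.47 in Gsr-KO and -0.03 in Gsr-WT. Klrc1, the inhibitory receptor NKG2A, read 108, 119.7 and 164 units after hyperoxia and 667, 187 and 275 units after air (-1.19 ± 0.36). Klre1, another lectin-like receptor, read 107, 129.7 and 189.9 units against 356, 222 and 214 units (-0.78 ± 0.30). Gzma and Gzmb, granzymes A and B, differed by -0.77 ± 0.47 and -0.52 ± 0.24, with separate groups, while Ncr1, a defining marker of these cells, overlapped at 218, 209 and 167 units after hyperoxia and 305, 169 and 300.5 units after air. Without air replicate 1, where Klrc1 was highest, the median of the list was -0.33.

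Of 10 T cell genes 3 lay below and 1 above (against 6.15% and 9.53% of all genes). Their median was -0.19, and Cd3e, of the T cell receptor complex, differed by -0.08 ± 0.39. Of 14 B cell markers 1 lay above and 1 below (against 9.53% and 6.15% of all genes). Cd79a, of the B cell receptor, differed by -0.01 ± 0.36 and Ms4a1, CD20, by 0.25 ± 0.31. Ighm, the immunoglobulin M heavy chain, was the marker above, at 7877, 10750 and 14600 units after hyperoxia and 3163, 1883 and 4413 units after air (1.84 ± 0.81; limma adjusted p = 0.0394 in the Gsr-KO adult arrays alone). Gsr-WT had 2850, 5244 and 7805 units after hyperoxia and 1916, 1550 and 947 units after air. Of the other 3 Ighm probe sets, 1 was higher, with means of 3400 units after hyperoxia and 1330 units after air, and 2 were lower, with means of 198 and 109 units after hyperoxia, against 328 and 132 units after air. Ighg3, an immunoglobulin G chain, read 198, 290.5 and 227 units after hyperoxia and 86.3, 135 and 85.3 units after air in Gsr-KO. Its groups overlapped in Gsr-WT, at 156, 140.1 and 147 units after hyperoxia and 459.9, 203 and 124 units after air. The genotype-by-oxygen term of Ighg3 was 1.61 ± 0.42 (limma adjusted p = 0.999). Cxcl13, the chemokine that draws B cells into follicles, read 853, 934 and 1504 units after hyperoxia and 490, 300.1 and 897 units after air (1.02 ± 0.29), with 1 air array above the lowest hyperoxia array. It read 699.5, 656 and 672 units after hyperoxia and 368, 359 and 235 units after air in Gsr-WT, where the groups were separate.

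Of 11 dendritic cell genes 4 lay above and 0 below (against 9.53% and 6.15% of all genes, the background of the next 3 lists too). Their median was 0.39 (0.25 without hyperoxia replicate 1 and 0.23 without air replicate 1). Ccl22 and Ccl17, chemokines that attract type 2 helper and regulatory T cells, were both above: Ccl17 read 193, 185 and 166 units after hyperoxia and 101, 97 and 122 units after air. Ccl22 read 162, 149 and 91.1 units after hyperoxia and 77, 65.6 and 64.1 units after air, close to the median of all values. Of 18 alveolar macrophage markers 3 lay above and 2 below. Marco, a scavenger receptor, was higher (661, 728 and 666 units after hyperoxia and 277, 273 and 489 units after air; 0.98 ± 0.47 in Gsr-KO and 1.34 ± 0.47 in Gsr-WT), while its other probe set, under 100.4 units in both groups, ran the opposite way. Siglecf, a lectin shared with eosinophils, was lower (198, 208 and 186 units after hyperoxia and 398, 371 and 328 units after air, -0.81 ± 0.28). Neutrophil genes had 3 of 16 below and 0 above. Their median was -0.22, and -0.09 without hyperoxia replicate 1. Ngp and Camp, granule proteins, were at -1.22 ± 0.70 and -1.26 ± 0.81 (Camp at -0.73 with its hyperoxia arrays, all under 100.4 units, set to 100.4 units), and S100a8 overlapped (-0.52 ± 0.62). Of 24 cytokines and acute inflammation genes 6 lay above and 0 below, with a median of 0.18 (0.09 without hyperoxia replicate 3, 0.11 without hyperoxia replicate 2 and 0.34 without hyperoxia replicate 1). Il1b and Il6, the classic inflammatory cytokines, overlapped; Il1b differed by -0.35 ± 0.35, and Il6 was under 100.4 units on all 3 air arrays.

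The markers of the gas-exchange epithelium and endothelium were mostly close to their air level. Alveolar type 1 cells form the thin barrier and type 2 cells make surfactant. Of 18 type 1 markers 1 lay above and 2 below (against 9.53% and 6.15% of all genes, the background of the type 2 and endothelial markers too). Their median was -0.03, and Ager and Hopx, both high in these cells, differed by -0.01 ± 0.15 and -0.06 ± 0.13. The other Hopx probe set was lower, with means of 6889 units after hyperoxia and 9000 units after air. Of 18 type 2 markers 2 lay above and 1 below (median 0.09); Sftpc differed by 0.05 ± 0.17, with a 95% interval of -0.31 to 0.40. The marker below was Lyz1, a lysozyme of type 2 cells and macrophages, at 14610, 20360 and 24140 units after hyperoxia and 26090, 31300 and 28520 units after air (-0.57 ± 0.18). Its other bright probe set had means of 22880 units after hyperoxia and 23960 units after air, and a dim one 302 and 288 units. Of 22 general endothelial markers 1 lay above and 3 below, with a median of 0.00 in Gsr-KO. In Gsr-WT 6 lay below (against 6.97% of all genes), with a median of -0.43 (-0.16 without hyperoxia replicate 2). In Gsr-KO, Cdh5, VE-cadherin, differed by 0.03 ± 0.23 and Kdr, the main receptor of VEGF, by -0.11 ± 0.25. Vegfa itself differed by 0.09 ± 0.21, with a 95% interval of -0.34 to 0.53. Angpt2, a ligand that loosens vessels, read 586, 512 and 585 units against 428, 458 and 418 units (0.35 ± 0.15).

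Some matrix genes were higher. Of 23 collagen chains 6 lay above and 0 below (against 9.53% and 6.15% of all genes). Their median was 0.18 in Gsr-KO (0.09 without hyperoxia replicate 1 and 0.11 without air replicate 1) and 0.03 in Gsr-WT. The main fibrillar chains overlapped, with Col1a1 at 0.08 ± 0.37 and Col3a1 at -0.04 ± 0.15. Col18a1, a basement membrane collagen, read 1041, 781 and 822 units after hyperoxia and 587, 567 and 604 units after air (0.56 ± 0.18). Col8a1, a vessel wall collagen, read 573, 474 and 565 units against 368, 382 and 335 units (0.54 ± 0.27), and Col15a1 differed by 0.51 ± 0.26. The other probe sets of Col18a1 and Col8a1 differed less. Their means were 446 and 141 units after hyperoxia, against 403 and 139 units after air. Of 19 elastic fibre genes, 6 lay above and 1 below (median 0.08, and the same shares of all genes). Eln, elastin, overlapped (-0.08 ± 0.17). Fbn2, the fibrillin of developing tissue, was the gene below, at 75, 76.7 and 115 units after hyperoxia and 253, 208 and 138 units after air (-0.95 ± 0.31). Mmp12, macrophage elastase, was among those above, at 172, 196 and 233 units after hyperoxia and 90.8, 93.6 and 102 units after air in Gsr-KO (0.89 ± 0.36). In Gsr-WT it read 125, 230.3 and 122 units after hyperoxia and 69.6, 39.4 and 64.2 units after air (1.11 ± 0.36). Acta2, smooth muscle actin, read 13300, 10250 and 11780 units after hyperoxia and 8408, 9167 and 9988 units after air (0.35 ± 0.23).

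Genes that act beside the missing enzyme had mostly small differences, and more of them were lower than higher after hyperoxia. Of 19 genes of glutathione synthesis, reduction and peroxidases, 0 lay above and 2 below (against 9.53% and 6.15% of all genes). Their median was -0.05, and 11 differences were negative. The list's mean level ranged from 0.408 to 0.480 on the Gsr-KO hyperoxia arrays and from 0.483 to 0.562 on the Gsr-KO air arrays. Gclc and Gclm, the subunits of the enzyme that limits glutathione synthesis, differed by 0.14 ± 0.30 and 0.07 ± 0.21. Of 20 thioredoxins, peroxiredoxins and antioxidant enzymes 1 lay above and 2 below (against the same shares of all genes), and 14 differences were negative. Their mean level ranged from 0.18 to 0.23 on the Gsr-KO hyperoxia arrays and from 0.25 to 0.30 on the Gsr-KO air arrays. Txnrd1, the reductase of thioredoxin and a parallel NADPH-driven route, differed by 0.11 ± 0.24 with a 95% interval of -0.38 to 0.61. Targets of NRF2, the factor that switches on antioxidant genes, had 7 of 27 below and 1 above (against 6.15% and 9.53% of all genes). Their median was -0.14 as deposited, -0.03 with quantile normalization and -0.01 without hyperoxia replicate 3, -0.09 without hyperoxia replicate 2, -0.06 without air replicate 2, -0.09 without air replicate 1 and -0.09 without air replicate 3. Nqo1, the quinone reductase that serves as its usual readout, read 303, 338 and 394 units after hyperoxia and 548, 433 and 437 units after air (-0.43 ± 0.23). Hmox1, heme oxygenase 1, read 665, 458 and 413 units against 339, 599.7 and 477 units (0.12 ± 0.31). Glutathione S-transferases, which join glutathione to foreign compounds, had 5 of 19 below and 0 above (against 6.15% and 9.53% of all genes). Of their differences 17 were negative, with a median of -0.17 (-0.11 without hyperoxia replicate 1). Their mean level ranged from 0.34 to 0.55 on the Gsr-KO hyperoxia arrays and from 0.64 to 0.66 on the Gsr-KO air arrays. Gsta3 read 1596, 1466 and 1091 units after hyperoxia and 2437, 2895 and 2365 units after air (-0.89 ± 0.69). After quantile normalization 3 of the 19 lay below.

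Genes of the DNA damage response and of DNA replication differed little, and mitosis genes were lower by a small amount. Of 24 targets of p53, the factor that answers DNA damage, 2 lay above and 3 below. The shares of all genes, 9.53% above and 6.15% below, are the background of each list in this paragraph. The median of the p53 targets was 0.01 in adults and 0.55 at P5. Cdkn1a, the p21 inhibitor of the cell cycle, was at 1611, 1603 and 1728 units after hyperoxia and 1382, 1148 and 1383 units after air (0.34 ± 0.55), with separate groups, and differed by 1.93 ± 0.55 at P5, where it did not pass. Eda2r, a death receptor under p53, was under 100.4 units on all 6 adult arrays and rose by 2.53 ± 0.55 at P5 (limma adjusted p = 0.0305). Of 27 DNA replication genes 3 lay above and 1 below, with a median of 0.02. Mitosis genes had 6 of 31 below and 0 above (against 6.15% and 9.53% of all genes), with a median of -0.09. Of the 31 differences 21 were negative. The list's mean level ranged from -1.38 to -1.33 on the Gsr-KO hyperoxia arrays and from -1.31 to -1.15 on the Gsr-KO air arrays. Cenpa, the centromere histone, read 219, 288 and 227 units against 466, 331 and 416 units (-0.67 ± 0.35). Of 11 genes of senescence and its secreted factors, 3 lay above, 1 below and 9 had a positive difference, with a median of 0.20 (0.35 without hyperoxia replicate 1). The gene below was Igfbp3, a binding protein of insulin-like growth factors, at 703, 1272 and 1225 units after hyperoxia and 2733, 2234 and 2041 units after air (-1.15 ± 0.37; -0.71 ± 0.37 in Gsr-WT). Of other lists, erythroid genes had 2 of 9 below and liver genes 2 of 11 below, with 0 above in both as deposited. Liver genes had 1 below with quantile normalization and 0 with median centring, and erythroid genes had 1 above with quantile normalization. With the Y-linked signal as a covariate the erythroid median went from -0.17 to 0.34 and the liver median from -0.40 to -0.01. Of 22 targets of HIF, the factor of low oxygen, none had separate groups in either direction, and of 29 interferon-stimulated genes 1 lay above and 2 below.

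Of 23 TGF-beta and BMP genes 5 lay above and 0 below with the deposited scaling (against 9.53% and 6.15% of all genes), and 2 lay above with median centring. Their median was 0.11, and 0.05 without air replicate 1. Tgfbr2, the type II receptor of TGF-beta, read 6422, 4581 and 4817 units after hyperoxia and 3151, 3956 and 4480 units after air (0.45 ± 0.17). Bmp5, a bone morphogenetic protein, read 2417, 2314 and 2763 units against 1857, 2011 and 1906 units (0.37 ± 0.17), although its other 2 probe sets ran the opposite way, with means of 906 and 224 units after hyperoxia, against 964 and 264 units after air. The ligands Tgfb1 and Tgfb2 overlapped (-0.09 ± 0.49 and 0.22 ± 0.22). Of 22 Wnt and Hedgehog genes 6 lay below and 2 above, with Fzd4, a Wnt receptor, at -0.66 ± 0.38 (its other probe set ran the opposite way, with means of 812 units after hyperoxia and 733 units after air) and Sfrp1, a secreted Wnt inhibitor, at -0.39 ± 0.25. Of 21 genes of cholesterol and fatty acid synthesis 5 lay above and 0 below (median 0.23). Sqle, squalene epoxidase, read 1519, 1611 and 1480 units after hyperoxia and 1095, 1015 and 1190 units after air (0.47 ± 0.17). Cyp26b1, which breaks down retinoic acid, ran in opposite directions in the genotypes. It read 1413, 661 and 708 units after hyperoxia and 214, 557 and 329 units after air in Gsr-KO (1.29 ± 0.44). It read 217, 78 and 118 units after hyperoxia and 456, 223 and 359 units after air in Gsr-WT (-1.22 ± 0.44). Its groups were separate in both genotypes, and its genotype-by-oxygen term of 2.51 ± 0.63 did not pass (limma adjusted p = 0.999).

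**Figure D5:**
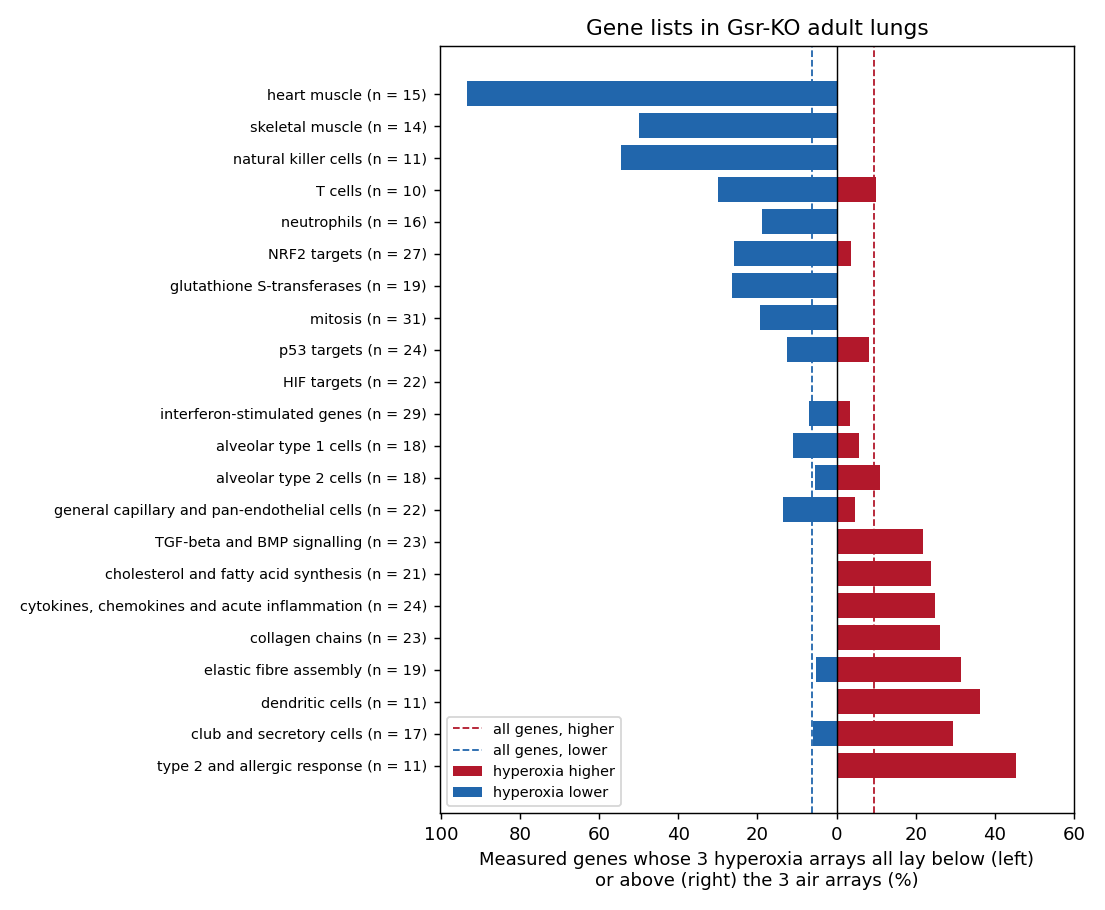
Share of the measured genes of selected lists whose 3 Gsr-KO hyperoxia arrays all lay below (left, in %) or all above (right, in %) the 3 Gsr-KO air arrays; dashed lines are the shares over all 13345 genes, 6.15% below and 9.53% above. Heart muscle, with 14 of 15 genes below, extends farthest to the left, and type 2 and allergic response, with 5 of 11 above, farthest to the right.

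Beside the Gsr-WT adults, the differences of the Gsr-KO adults ran partly in the same direction. Among the 1272 genes above in Gsr-KO, 866 also had a positive difference in Gsr-WT. Of the 1272, 171 were separate in the same direction there, which is 13.4% of the 1272 and 16.6% of the 1031 genes above in Gsr-WT (7.73% of all genes). Among the 821 below in Gsr-KO, 554 were negative in Gsr-WT. Of the 821, 76 were separate there, 9.26% of the 821 and 8.17% of the 930 genes below in Gsr-WT (6.97% of all genes). Over all 13345 genes, as a description, the Gsr-KO and Gsr-WT adult differences correlated at r = 0.27, and at r = 0.21 without Gsr-WT hyperoxia replicate 2. Markers of fat, a tissue next to the lung, varied widely between mice: Ucp1, the uncoupling protein of brown fat, read 1946, 723 and 440.3 units in Gsr-KO hyperoxia lungs and 183, 8.06 and 592 units in Gsr-KO air lungs. Of the 10 fat genes 8 had a positive difference in Gsr-KO, with 0 above and 1, Nnat, below (against 9.53% and 6.15% of all genes). Their median was 0.69 in Gsr-KO (0.22 without air replicate 2 and 1.14 without air replicate 3) and 1.35 in Gsr-WT. In Gsr-WT 3 lay above (against 7.73% of all genes).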

How the data were processed

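Lung RNA was hybridised to 1-colour Affymetrix mouse arrays, described as 1 array per mouse. The deposited values are intensities on a linear scale, computed and scaled per array with MAS5 per the submitters' processing notes (version not stated); each array's mean after trimming 2% at both ends was 499.8 to 499.9 units. Of 45101 probe sets, 64 are controls, 34945 carry 1 gene symbol in the platform annotation, 932 several and 9160 none; of the 23428 with 1 symbol and at least 3 arrays over 100.4 units (the median signal of the series), the probe set of highest mean over all arrays stood for each of 13345 genes.

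From the deposited intensities, log2(value + 26.33 units, the 25th percentile) was fitted with limma 3.58.1 in R 4.3.3: 10 group means over all 32 arrays, 22 residual degrees of freedom, moderated tests with a variance trend, two-sided, Benjamini-Hochberg over all genes, threshold 0.05. No array was averaged or dropped. The script that makes the tests was tested on simulated data. The members and lists were chosen with earlier results of these data known. Named genes are Gsr, the 10 per direction of lowest p with separate groups (predicted genes and clone names aside), the first 3 measured and the 3 of lowest p of each list, the genes of lowest p in other contrasts, list members of muscle and type 2 response, and a few chosen after their values were seen, named as such. Replicate numbers did not pair the Gsr-KO adults: the correlations of deviations for numbers 1 to 3 ran from -0.41 to -0.09. Promoters come from RefSeq, GRCm38.p6. Alternatives were other filters, offsets, scalings, subsets of arrays, array weights, covariates and a replicate block. The number of arrays limits the precision.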

Additional observations from a re-analysis of the deposited data

Results flagged for a closer look

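The effect of hyperoxia in Gsr-KO lungs differed between adults and pups in 11 genes by the age-by-oxygen term, an interaction tested with limma over all genes. All 11 had a lower effect in adults. The terms, as adult difference minus P5 difference on the log2 scale, were -3.13 for Atp2a1, the fast-fibre calcium pump, and -4.58 for Tnnt3, fast troponin T. They were -6.32 for Myh8, the perinatal myosin heavy chain, -7.24 for Tnnc2, fast troponin C, and -1.93 for Asb5, a muscle gene of the ankyrin repeat and SOCS box family. Their limma adjusted p was 0.0403 each. Their P5 differences were 3.02, 4.73, 5.34, 6.03 and 1.62 in that order, and their adult differences -0.11, 0.15, -0.98, -1.21 and -0.31. In the adults of both groups Tnnt3 and Asb5 read under 100.4 units on all 6 arrays, and Myh8 and Tnnc2 on 5 of 6, so those adult values depend on the offset. The count of 11 was 8 without P5 air replicate 1 of the Gsr-KO pups and 0 without any other 1 of the 12 arrays compared.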

How the results depend on the processing

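In Gsr-KO adults the count of 0 genes at an adjusted p of 0.05 (limma; 360 at an unadjusted p under 0.05) became 1 without the filter on low signals, 3 with an offset of 100 units, 2 with every probe set, 4 in the adult arrays alone, 44 in the 6 arrays alone, 463 with array weights and 2 without the arrays of high 3′-to-5′ ratio, an alternative chosen after seeing the data. It stayed 0 when 1 array was left out. In Gsr-WT adults 0 became 1 without the filter, 2 with the offset of 100 and 892 with weights. It was 0 to 4 with 1 array left out (4 without Gsr-WT air replicate 3, 3 without Gsr-WT hyperoxia replicate 1). The genotype term went to 327 genes with weights and stayed 0 with 1 array left out. The 46 genes of the P5 contrast became 17 with the stricter filter, 2696 with weights and 23 to 74 with 1 array left out. The 11 genes of the age term became 0 with the stricter filter, 0 with an offset of 1, 0 with quantile normalization, 0 with median centring and 0 with every probe set. They became 18 with the offset of 100, 51 in the 12 arrays alone, 1574 with weights, 20 without the arrays of high 3′-to-5′ ratio and 0 to 8 with 1 array left out. The cause of these changes was not tested, except that the stricter filter tests fewer genes and the arrays alone are fewer. With the replicate number as a block the counts were 0, 0, 0, 46 and 0 in the same order. The numbers did not pair the Gsr-KO adults (correlations of deviations of -0.41 to -0.09), so the 0 of the age term is a count under an unpaired block. Of 108 genes followed through the alternatives with 1 probe set per gene, 89 kept their sign under all of them. For those with separate groups, leaving out an array could not turn the sign. Some other genes named in the text were not followed in this way. The fit of every probe set did not enter this check, and other probe sets that ran the opposite way are given with some genes above. The other 19, whose groups overlapped, turned as follows. With quantile normalization, Ager 0.10, Col3a1 0.057, Hopx 0.037, Scgb1a1 0.15 and Scgb3a2 0.025. With median centring, Ager 0.0049 and Cd79a 0.002. With array weights, Cd79a 1e-04, Cdh5 -0.082, Col1a1 -0.023, Eda2r -0.097, Gclm -0.036, Hmox1 -0.10 and Nppb -0.20. With the Y-linked level as a covariate, Cd79a 0.26, Cdh5 -0.057, Col1a1 -0.015, Eda2r -0.026 and Nppb -0.72. With 1 array left out, these differences ranged for Ager -0.17 to 0.13, Atp2a1 -0.34 to 0.017, Cd3e -0.27 to 0.12, Cd79a -0.12 to 0.14, Cdh5 -0.087 to 0.099, Col1a1 -0.0063 to 0.18, Col3a1 -0.17 to 0.10, Eda2r -0.10 to 0.19, Eln -0.21 to 0.021, Gclc -0.0033 to 0.21, Hmox1 -0.089 to 0.30, Hopx -0.18 to 0.058, Kdr -0.29 to 0.028, Nppb -0.15 to 0.18, Scgb1a1 -0.20 to 0.067, Scgb3a2 -0.24 to 0.014, Sftpc -0.10 to 0.19 and Tgfb1 -0.16 to 0.021. Heart muscle had 13 of its 15 genes below with quantile normalization and with median centring, and its median ran from -1.66 to -0.79. With median centring 64.1% of the genes with separate groups were higher in hyperoxia, against 60.8% as deposited and 59.9% with quantile normalization. Genes under 100.4 units carry little signal over background, and no detection calls were used.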

Other observations

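Some genes of the Gsr-KO adults stood out without belonging to a list, and were chosen after their values were seen. Phex, an endopeptidase of bone and teeth, was higher after hyperoxia in the Gsr-KO adult arrays alone (1.23 on the log2 scale, limma adjusted p = 0.0324), and so was Itih4, an acute-phase protein of plasma (0.79, limma adjusted p = 0.0333). In the fit of all arrays neither passed.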
